A study of Mus musculus with 9 samples.

Results

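The 10 genes described here encode enzymes of the kynurenine pathway of tryptophan breakdown and of NAD synthesis: Ido2, Afmid, Kmo, Kynu, Haao, Acmsd, Qprt, Nampt, Nmnat1 and Nadsyn1. They were taken by symbol from the 23282 gene symbols of each deposited table, and all 10 were found. They were chosen with the genotype contrast of these libraries already known, Kynu in particular for its large difference. Their differences between genotypes are therefore given as a description, with standard errors and without a test. The libraries, 4 wild type and 5 Bmal1 -/- (called knockout), were made by 3′ mRNA sequencing from kidneys of C57BL/6 mice. Bmal1, listed under its symbol Arntl, is a core activator of the daily clock and works as a dimer with Clock or Npas2. The labels do not give the sex and age of the mice, the hour of sampling, the deleted part of the gene and the cells that lost it. They also do not tie each library to its own animal, so every standard error and p-value reflects only how these libraries vary, which may be technical.

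In the kynurenine pathway, a dioxygenase (Tdo2, Ido1 or Ido2) opens the tryptophan ring, Afmid removes the formyl group to give kynurenine, and Kmo hydroxylates it. Kynu, kynureninase, then cleaves off alanine with the help of pyridoxal phosphate, and Haao opens the next ring to give the unstable aminocarboxymuconate semialdehyde. Acmsd sends this compound towards glutarate and full oxidation; what escapes it closes to quinolinate, which Qprt turns into the NAD precursor nicotinate mononucleotide. Nampt salvages nicotinamide, Nmnat1 adds the adenylyl group in the nucleus, and Nadsyn1 amidates the product of the routes from quinolinate and nicotinate to NAD. Kidney, with liver, is a main site of the full pathway, and Nampt is known as a target of Clock and Bmal1 in other tissues.

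The deposited values were taken as log2(x + 1), with x a number of reads per gene adjusted for library size. This form was judged from the low values, since no source used here states the normalization. Adjusted totals were 12407284 to 13486444 per wild-type library and 11765219 to 12936926 per knockout library. Arntl lay between 6.26 and 7.06 in wild type and between 5.65 and 5.99 in knockout, and a 3′ tag outside a deletion would not check the genotype. Testing was limited to the 13481 symbols with an x of 10 or more in 4 or more libraries. All 10 members exceeded that minimum in every library. The ribosomal precursor Rn45s took 5.07% to 11.3% of adjusted reads in wild type and 6.83% to 14.4% in knockout. Wild type 2 and knockout 4 held the highest share in their genotype, and values without both are given where they matter. The kidney label was checked on proximal tubule transcripts such as Kap and Slc22a6, which were abundant (means of 19.11 and 13.70 in wild type).

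Promoter sequence is shown for 2 members: Afmid, which was lower in knockout, and Nampt, for its known link to the clock. The letters are the 250 bases before the RefSeq transcription start in GRCm38.p6, 5′ to 3′ on the + strand, which is the strand of both genes. Capitals mark AGGTCA, the core read by REV-ERB, ROR and other nuclear receptors and found in the Nampt window. The windows are chr11:117825669-117825918 for Afmid and chr12:32820085-32820334 for Nampt.
Afmid: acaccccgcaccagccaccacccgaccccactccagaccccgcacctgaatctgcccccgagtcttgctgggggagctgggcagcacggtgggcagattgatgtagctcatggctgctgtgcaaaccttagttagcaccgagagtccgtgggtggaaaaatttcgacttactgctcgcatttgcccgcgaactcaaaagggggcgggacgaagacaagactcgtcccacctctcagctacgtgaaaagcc
Nampt: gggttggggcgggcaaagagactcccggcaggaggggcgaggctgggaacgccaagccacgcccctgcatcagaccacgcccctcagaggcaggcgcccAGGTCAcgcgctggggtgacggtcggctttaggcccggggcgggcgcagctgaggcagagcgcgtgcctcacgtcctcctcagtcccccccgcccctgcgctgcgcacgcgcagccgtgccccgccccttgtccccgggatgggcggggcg

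A set of 5 motifs was searched on both strands of windows reaching from 250 bases before to 50 after the start. RefSeq windows were available for 8 members but not for Kynu and Ido2, whose promoters are not described here. The starts used for Kmo, Nampt and Haao, among others, lie inside the gene spans given below, so starts further upstream were not covered. The canonical E-box CACGTG, which Bmal1 complexes bind, was in the window of 0 of the 8, against 7.15% of 32851 windows of all genes. AGGTCA was in 3, Haao and Nampt among them, against 16.3% of all windows. The E-box variant CACGTT was in 1, Haao (4.68% of all windows), the STAT-type motif TTCNNNGAA in 1, Qprt (8.30%), and the D-box TTATGNAA in 0 (3.38%). The motifs share no letters at any of these matches, and a match or its absence describes these letters only.

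Kynu was the member with the largest difference. In wild type its log2 values were 4.69, 4.61, 4.29 and 3.98, and in knockout 7.37, 7.32, 7.41, 7.12 and 7.22. All 5 knockouts lay far above all 4 wild types, and the knockouts were closer to each other (SD 0.119, n = 5) than the wild types (SD 0.324, n = 4). These SDs belong to different levels, and precision is lowest for low genes, so nothing is read from their difference. The mean difference was 2.90 on the log2(x + 1) scale (SE 0.22), or 7.45-fold. In adjusted reads this was a mean x of 20.4 in wild type and 155.8 in knockout. By level, Kynu stood at percentile 10.2 of tested genes in wild type and at percentile 41.2 in knockout. Kynu lies on chromosome 2 from 43555329 to 43682715 on the + strand (GRCm38), and its exons overlap no other annotated gene. The other kynurenine genes lie on chromosome 8 (Ido2, 24531892 to 24576333, - strand), chromosome 11 (Afmid, 117825924 to 117839908, +), chromosome 1 (Kmo, 175620381 to 175662116, +, and Acmsd, 127729413 to 127767978, +) and chromosome 17 (Haao, 83831156 to 83847963, -). Of the genes that make NAD, Qprt (127107114 to 127122226, -) and Nadsyn1 (143795584 to 143822849, -) lie on chromosome 7, Nampt (32819545 to 32853349, +) on chromosome 12 and Nmnat1 (149467572 to 149485202, -) on chromosome 4.

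**Figure D1:**
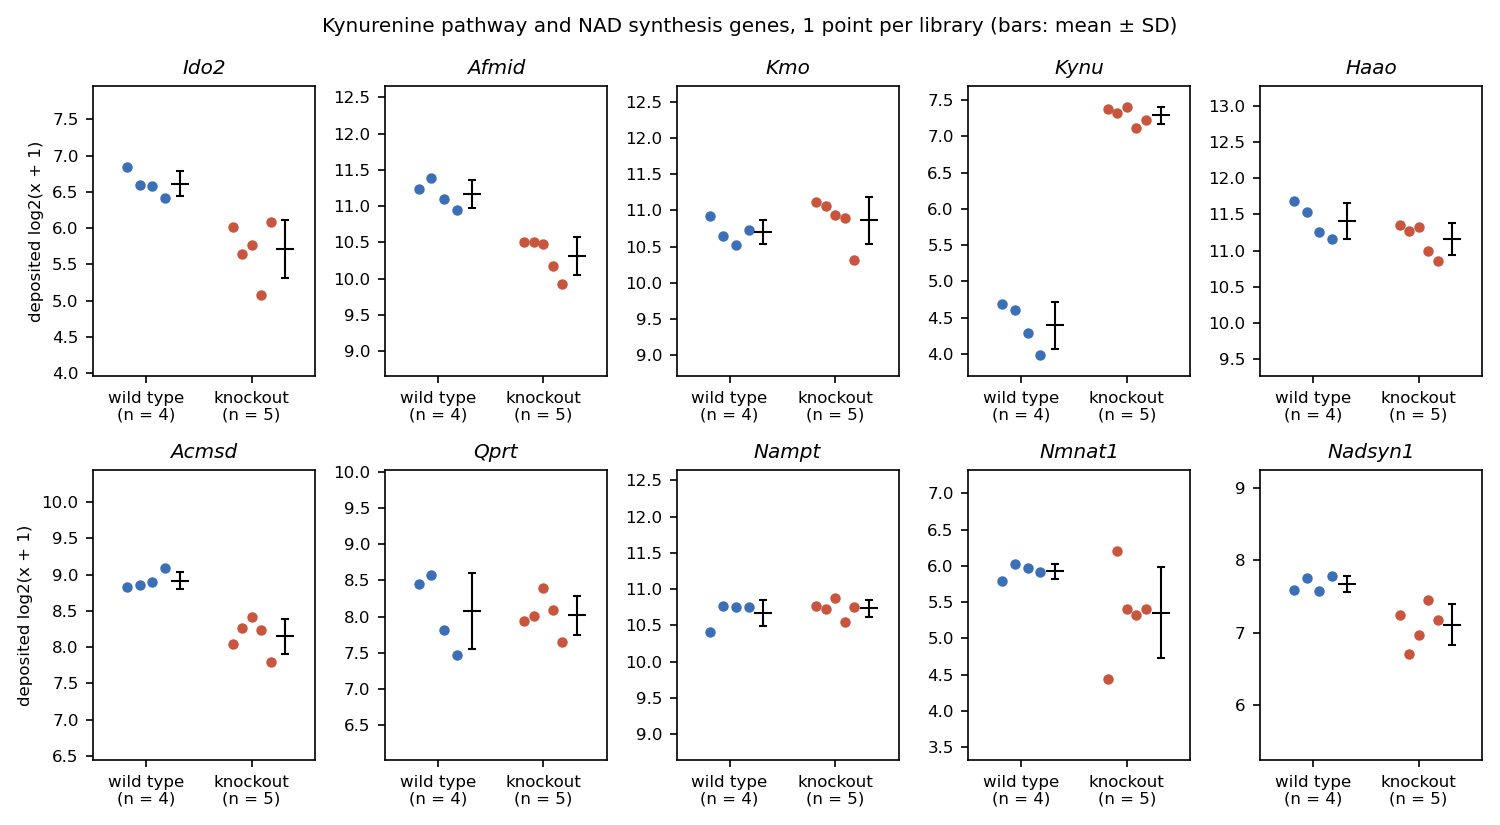
Deposited log2(x + 1) of the 10 genes (y axis, each panel spanning the same 4 log2 units) in 4 wild-type (blue) and 5 knockout (red) libraries; each point is 1 library, and the bars beside them give the mean ± SD. Kynu stands 2.90 higher in knockout, Ido2, Afmid, Acmsd and Nadsyn1 lie lower without overlap, and the other 5 overlap.

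The enzymes that supply kynurenine were lower in knockout. Ido2, the one dioxygenase of the pathway that passed the filter, had values of 6.85, 6.60, 6.59 and 6.42 in wild type against 6.02, 5.65, 5.76, 5.07 and 6.08 in knockout. Every knockout lay below every wild type, with knockout 4 lowest, and the difference was -0.90 (SE 0.23), or -0.741 without wild type 2 and knockout 4. Afmid had 11.24, 11.39, 11.09 and 10.95 in wild type against 10.51, 10.51, 10.48, 10.17 and 9.92 in knockout. Its genotypes did not overlap either, and the difference was -0.85 (SE 0.13), a 1.80-fold lower level. Exons of Afmid overlap Tk1 on the other strand and Gm20708 on the same strand, and the strand setting of the counting is not given in the sources used here, so its value is uncertain in that respect. The other ring-opening enzymes were near the floor: Tdo2 was at most 2.19 and Ido1 at most 1.07 in any library.

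Kmo and Haao, the steps on either side of Kynu, were abundant and their genotypes overlapped. Kmo had 10.92, 10.65, 10.53 and 10.73 in wild type against 11.12, 11.07, 10.93, 10.89 and 10.31 in knockout. Only knockout 5 lay below the wild types, and the difference was 0.16 (SE 0.14), or 0.295 (SE 0.111) without knockout 5. Haao had 11.69, 11.53, 11.25 and 11.16 in wild type against 11.36, 11.26, 11.32, 10.99 and 10.85 in knockout. Wild types 1 and 2 lay above all knockouts and knockouts 4 and 5 below all wild types, while the others overlapped, with a difference of -0.25 (SE 0.13).

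At the branch point, Acmsd was lower in knockout and Qprt was not separated. Acmsd had 8.82, 8.86, 8.90 and 9.09 in wild type against 8.04, 8.27, 8.41, 8.24 and 7.79 in knockout. The highest knockout stayed below the lowest wild type, and the difference was -0.77 (SE 0.14), a 1.70-fold lower level. Acmsd exons overlap 2900009J06Rik, a noncoding gene on the other strand. Qprt had 8.45, 8.58, 7.81 and 7.47 in wild type against 7.945, 8.003, 8.400, 8.098 and 7.656 in knockout. Wild types 1 and 2 lay above all knockouts and wild type 4 below all of them. The Qprt difference of -0.06 (SE 0.21) had no stable sign, at -0.259 without wild type 4 and 0.113 without wild type 2.

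Among the NAD enzymes, Nampt was not separated by genotype. It had 10.41, 10.77, 10.75 and 10.76 in wild type against 10.77, 10.73, 10.88, 10.55 and 10.76 in knockout. The low value of wild type 1 was the only wild type outside the knockout range, and the difference was 0.07 (SE 0.11), or -0.022 without wild type 1. Scaling moved it between 0.067 as deposited and 0.172 with scaling to the library total without Rn45s, which also moved the median of all tested genes to 0.105. With the hour of sampling unknown, this is a statement about these libraries at whatever hour they were taken.

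Nadsyn1 had 7.58, 7.76, 7.57 and 7.78 in wild type against 7.24, 6.71, 6.97, 7.45 and 7.18 in knockout. All knockouts lay below all wild types, knockout 4 by little, and the difference was -0.56 (SE 0.17), a 1.48-fold lower level. Nmnat1 had 5.790, 6.026, 5.972 and 5.920 in wild type against 4.442, 6.203, 5.400, 5.327 and 5.399 in knockout. Knockout 2 was above every wild type and the other 4 knockouts below, and knockout 1 was lowest by far. Its difference of -0.57 (SE 0.30) was -0.345 without knockout 1 and -0.785 without knockout 2.

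Of the 10 members, 1 was higher and 4 were lower in knockout with no overlap between genotypes. Over all tested genes 5.86% were higher and 8.46% lower in that way, 14.3% in all. Nothing is read from the members' counts, since the contrast was known when they were chosen. The median difference of the members was -0.406, against 0.0002 over all tested genes.

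The kit gives about 1 tag per transcript, so levels of different genes can be set side by side without a length correction, within what tag mapping allows. In wild type the order of mean log2 level was Haao (11.41), Afmid (11.17), Kmo (10.71), Nampt (10.67), Acmsd (8.92), Qprt (8.08), Nadsyn1 (7.67), Ido2 (6.61), Nmnat1 (5.93) and Kynu (4.39). The ranges of Haao and Afmid, of Kmo and Nampt, and of Qprt and Nadsyn1 overlapped; the other neighbours were separate in all 4 libraries. Kynu was thus the scarcest transcript of the set in every wild-type library, with a median of 78.6 Kmo tags per Kynu tag.

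In knockout the order was Haao (11.16), Kmo (10.86), Nampt (10.74), Afmid (10.32), Acmsd (8.15), Qprt (8.02), Kynu (7.29), Nadsyn1 (7.11), Ido2 (5.72) and Nmnat1 (5.35). Kynu stood between Qprt and Nadsyn1, with a range overlapping that of Nadsyn1, and there were 13.4 Kmo tags per Kynu tag. Afmid stood below Kmo. Afmid minus Kmo was 0.219 to 0.740 in wild type and -0.718 to -0.393 in knockout, so that Afmid was above Kmo in all 4 wild types and below it in all 5 knockouts. Acmsd minus Qprt was 0.274 to 1.629 in wild type and 0.013 to 0.262 in knockout. The groups just failed to overlap, and wild types 1 and 2 (0.377 and 0.274) lay close to the knockouts. These distances are built from the differences above and add no independent evidence.

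**Figure D2:**
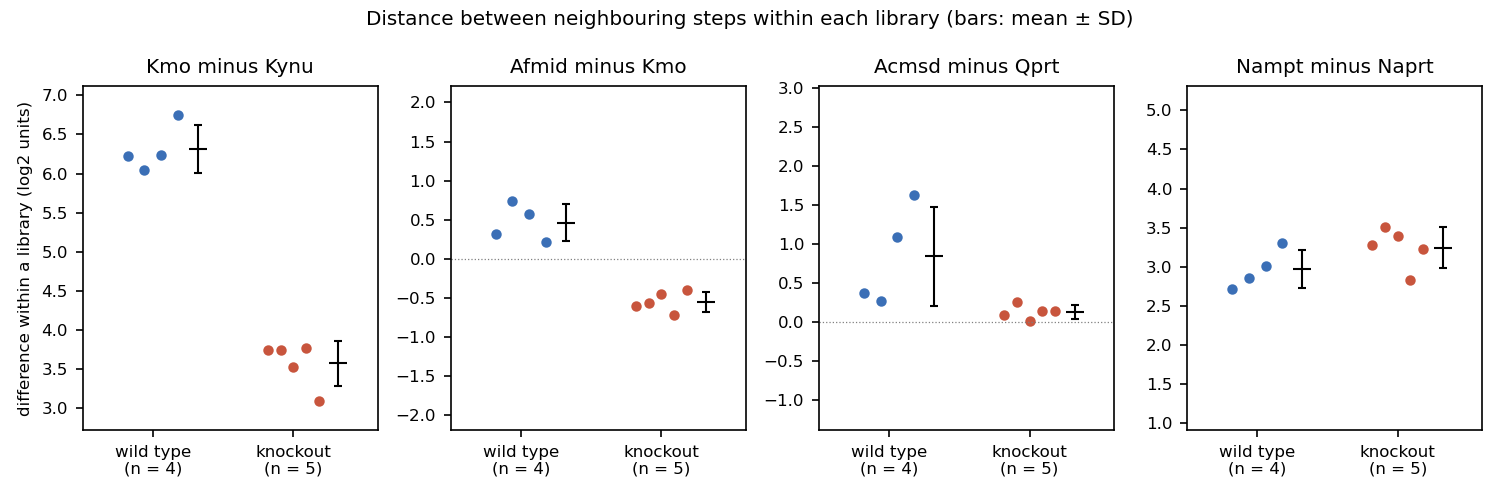
Difference between the log2(x + 1) values of 2 genes within the same library (y axis, log2 units, all panels spanning the same 4.4 units) in wild type (blue) and knockout (red); each point is 1 library and bars give the mean ± SD. Kmo minus Kynu averaged 6.31 in wild type and 3.58 in knockout, Afmid minus Kmo was above 0 in wild type and below 0 in knockout, and Nampt minus Naprt overlapped.

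Within a genotype, several members varied together. Kynu, Qprt, Haao and Afmid were above their wild-type mean in wild types 1 and 2 and below it in wild types 3 and 4, and all except Qprt were below the knockout mean in both knockouts 4 and 5. Knockout 5 held the lowest knockout value of 5 members (Afmid, Kmo, Haao, Acmsd and Qprt). Acmsd did not follow this order in wild type, where wild type 4 was highest. The within-genotype spread was ranked among the 501 tested genes nearest in mean over the 9 libraries, the gene itself included. That of Qprt was wide (SD 0.401, percentile 95.0), and Kynu stood at percentile 6.8 (SD 0.230). For Kynu the mean over the 9 libraries lies between the genotypes, at a level neither has, so its percentile does not establish a narrow spread. Kmo, Afmid and Haao lay between percentiles 82.8 and 89.0.

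**Figure D3:**
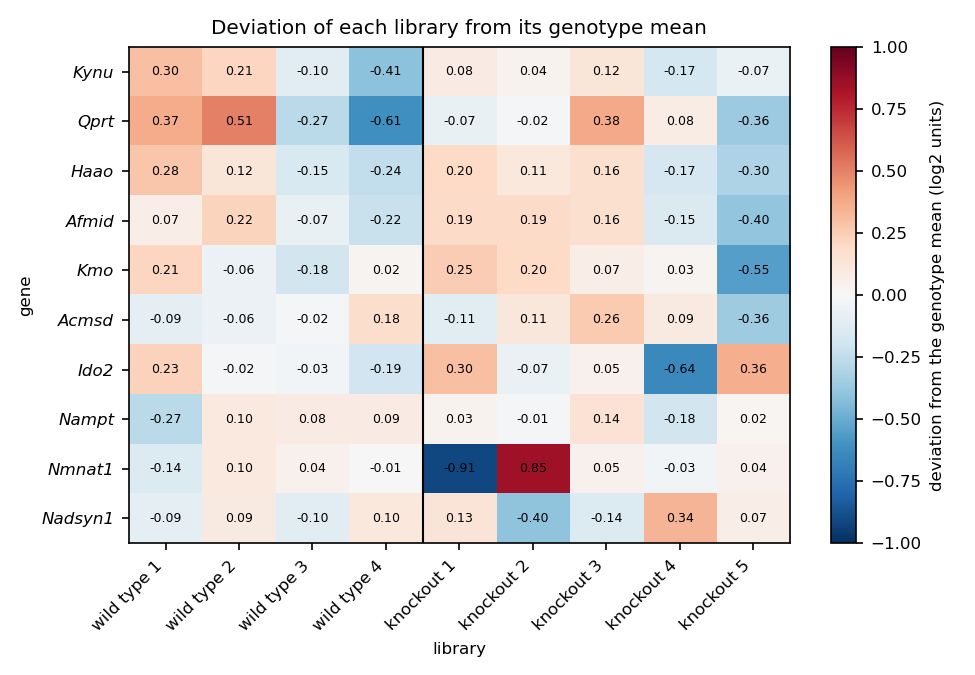
Deviation of each library (columns) from the mean of its genotype for the 10 genes (rows), in log2 units, red above and blue below; the black line divides the 4 wild-type from the 5 knockout libraries. Kynu, Qprt, Haao and Afmid share the sign of their deviation in all 4 wild-type libraries, and Nmnat1 shows the widest spread, from -0.91 in knockout 1 to 0.85 in knockout 2.

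The genes whose values followed Kynu most closely over the 9 libraries, by Pearson r as a measure of likeness, were Bhmt (r = 0.997), Cyp2d22 (0.992), Fgg (0.991), BC089597 (0.991) and Leprot (0.990). Because Kynu splits the libraries by genotype, a gene with a clean genotype difference scores high by this measure. Bhmt remethylates homocysteine and Fgg is a fibrinogen chain. For deviations from the genotype means over the same 9 libraries, r with Kynu was 0.900 for Bhmt, 0.875 for Fgg, 0.684 for Leprot, 0.609 for Cyp2d22 and 0.467 for BC089597. The deviations of Kynu ran from -0.41 to 0.301 in wild type and from -0.172 to 0.119 in knockout. The wild types, where Kynu was low, therefore weigh most in these r values. For Nampt the closest were Bbs12 (0.965), Prelid2 (0.927), Trim30d (0.917), N4bp2 (0.911) and Mansc1 (0.910), and no gene appears in both lists. Nampt varied little (SD 0.177 in wild type and 0.118 in knockout) and wild type 1 stood apart, so single libraries weigh heavily in its r values. Both lists hold the highest r among all tested genes other than predicted ones, so high values are partly a result of selection. These r values describe libraries that share a preparation and are given without a test.

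Around the members, a list of 69 other genes of tryptophan and NAD metabolism was tested in the same fit. Of the 56 that passed the filter, 6 rose and 11 fell in knockout (limma, adjusted p under 0.05), or 30.4%, against 14.4% of all tested genes (6.16% higher, 8.20% lower). The median difference of the list was -0.070. The list was drawn up with earlier results of these data known, so this share is a description. Nnmt, among those that rose, reached the filter's minimum only in knockouts. The counts by role and of markers below are to be set beside the same shares over all tested genes. The count that fell depended on scaling and on single libraries. With scaling to the library total 6 rose and 5 fell, without Rn45s in that total 8 and 4, with upper-quartile scaling 6 and 6, with quantile normalization 6 and 5, and with Rn45s as a covariate 6 and 4. It was 5 without wild type 1 or knockout 3, 6 without wild type 3 or 4, and 7 without knockout 2 or 4 or without wild type 2 and knockout 4 together. Of the 17 called genes, 7 kept their call in all 20 alternatives, among them Ccbl1, Tmem27, Ddc, Inmt, Pdxk and Nadk.

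**Figure D4:**
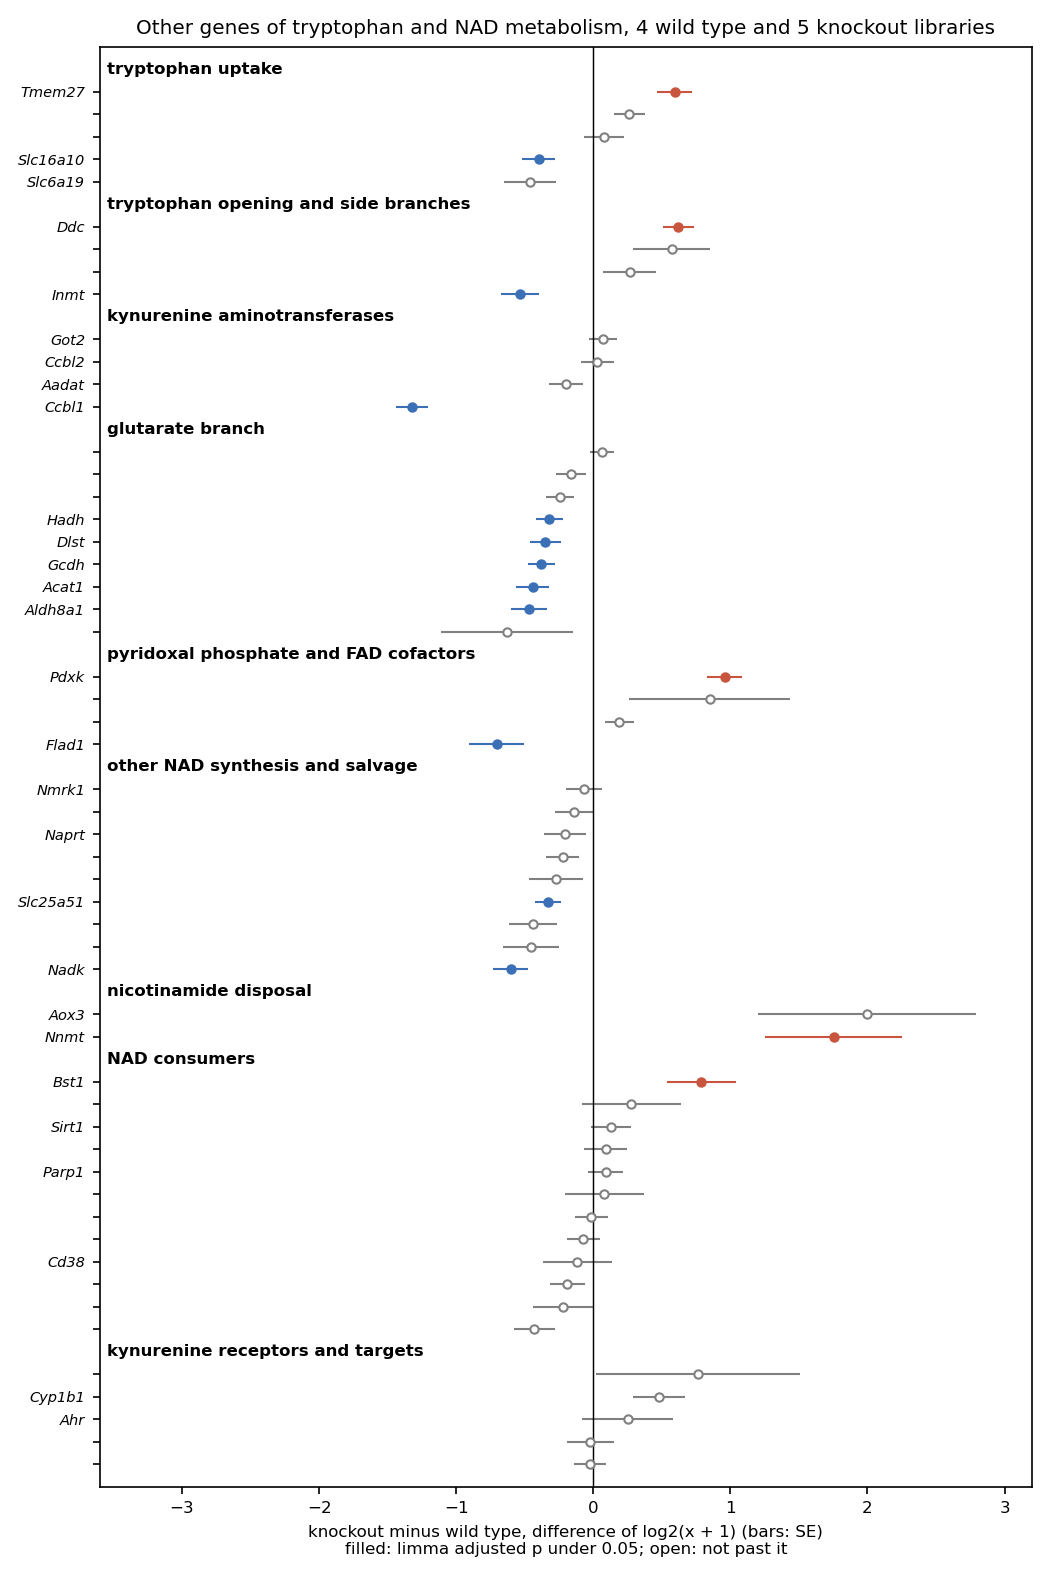
Knockout minus wild type difference of log2(x + 1) with its SE (x axis) for 54 of the 56 tested genes around the members, grouped by role, with names for the genes the text describes; filled points passed limma's adjusted p of 0.05 and open points did not. Ccbl1 is the largest decrease, Pdxk, Tmem27 and Ddc are among the 5 filled increases, and the SE bars of Sirt1 and Parp1 reach across 0.

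Kynurenine can also leave the pathway by transamination to kynurenate. Of the 4 aminotransferases, Ccbl1, now named Kyat1, fell: it had 10.05, 10.49, 10.27 and 10.40 in wild type against 9.14, 9.10, 8.88, 8.97 and 8.80 in knockout. The genotypes were far apart, with a difference of -1.32 (SE 0.12, limma adjusted p = 3.13e-07), a 2.50-fold lower level. Aadat, the most abundant of the 4 with a mean of 12.02 in wild type, had -0.20 (SE 0.13, adjusted p = 0.336), Ccbl2 (now Kyat3) 0.03 (SE 0.12, adjusted p = 0.900) and Got2 0.07 (SE 0.10). There was a median of 64.1 Ccbl1 tags per Kynu tag in wild type and 3.42 in knockout.

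Cofactor enzymes changed in both directions. Pdxk, the kinase that makes pyridoxal phosphate, the cofactor of Kynu and of the aminotransferases, had 9.83, 9.86, 9.69 and 9.52 in wild type against 10.65, 10.40, 10.95, 10.46 and 10.96 in knockout. All knockouts were higher, with a difference of 0.96 (SE 0.13, limma adjusted p = 5.87e-05). Exons of Pdxk overlap 4921516A02Rik on the other strand. Flad1, the synthase of FAD, on which Kmo depends, fell by 0.70 (SE 0.20, adjusted p = 0.0235), a call lost without wild type 1 (0.0699) or 2 (0.0640) and without knockout 5 (0.0580); its exons overlap Lenep on the same strand.

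In the glutarate branch, which lies beyond Acmsd, 5 of 9 genes fell by small amounts and none rose, against 8.20% of all tested genes that fell. The median difference of the 9 was -0.351. The other 4 were not called, and 1 of them, Echs1, had a positive difference (0.07, SE 0.09, limma adjusted p = 0.685). Aldh8a1, which oxidizes the product of Acmsd, fell by 0.47 (SE 0.13, limma adjusted p = 0.0218), Gcdh, glutaryl-CoA dehydrogenase, by 0.38 (SE 0.10, adjusted p = 0.0148), Acat1, acetoacetyl-CoA thiolase, by 0.44 (SE 0.12, adjusted p = 0.0206) and Hadh, of fatty acid oxidation as well, by 0.32 (SE 0.10, adjusted p = 0.0338). The fifth was Dlst (-0.35, SE 0.11, adjusted p = 0.0445). None of these calls held in all alternatives, the number that lost them being 5 for Gcdh, 6 for Acat1, 10 for Aldh8a1, 13 for Hadh and 15 for Dlst. All 5 were lost with scaling to the library total without Rn45s (limma adjusted p 0.0549 to 0.155). All 5 were also lost with Rn45s as a covariate (0.0510 to 0.177), so the count for this branch depends on the processing. Without wild type 1 the adjusted p was 0.0570 for Gcdh, 0.0795 for Acat1, 0.0786 for Aldh8a1, 0.0995 for Hadh and 0.0925 for Dlst. Without knockout 3 it was 0.0632 for Acat1, 0.0519 for Aldh8a1, 0.0759 for Hadh and 0.0603 for Dlst. The call of Aldh8a1 was also lost without wild type 3 (0.0526) or 4 (0.0541) or knockout 4 (0.0657) or 5 (0.0537). That of Hadh was also lost without wild type 3 (0.0502) or 4 (0.0660) or knockout 2 (0.0586) or 4 (0.0920). Dlst kept its call in 1 of the 9 sets that leave out a library, the one without knockout 1.

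Of 6 tested tryptophan transport genes 2 rose and 1 fell. Tmem27, or collectrin, which carries the apical amino acid transporter Slc6a19 to the membrane in kidney, had 14.75, 14.54, 14.25 and 14.49 in wild type against 15.19, 15.18, 15.01, 15.16 and 14.96 in knockout. All knockouts were higher, with a difference of 0.59 (SE 0.13, limma adjusted p = 0.00385). Slc6a19 itself had -0.46 (SE 0.19, adjusted p = 0.123), and -0.645 with an adjusted p of 0.00847 without knockout 1, whose value of 8.57 was above every wild type. The basolateral aromatic transporter Slc16a10 fell by 0.40 (SE 0.12, adjusted p = 0.0336), a call lost in 12 of 20 alternatives, among them without wild type 3 (0.0986) or 4 (0.0972) or knockout 2 (0.0858), 3 (0.0765) or 4 (0.0735). That call was also lost with every scaling and with quantile normalization (0.0712 to 0.121), and with Rn45s as a covariate (0.129).

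Of 9 listed genes of ring opening and side branches 4 were tested, of which 1 rose, 1 fell and 2 did not pass. Ddc, aromatic amino acid decarboxylase, rose by 0.62 (SE 0.11, limma adjusted p = 0.00113), with 10.69 to 11.07 in wild type and 11.17 to 11.70 in knockout. Inmt, which methylates indoleamines, fell by 0.54 (SE 0.14, adjusted p = 0.0160). Tph1, Tph2 and Il4i1 were below the filter, the last 2 listed at 0 in every library.

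In other routes to NAD, 2 of 9 tested genes fell and none rose. Nadk, the cytosolic kinase that makes NADP, had 10.61, 10.22, 10.37 and 10.44 in wild type against 10.05, 9.70, 9.57, 9.63 and 10.08 in knockout. All knockouts were lower (difference -0.60, SE 0.13, limma adjusted p = 0.00320). Slc25a51, the mitochondrial NAD carrier, fell by 0.33 (SE 0.09, adjusted p = 0.0237), a call lost in 11 of 20 alternatives, among them without wild type 3 (0.0722) or 4 (0.0631) or knockout 2 (0.0586), 3 (0.0620) or 4 (0.0598). That call was also lost with every scaling and with quantile normalization (0.0707 to 0.158), and with Rn45s as a covariate (0.0704). The entry enzymes for nicotinate and nicotinamide riboside had -0.21 (Naprt, SE 0.15, adjusted p = 0.411) and -0.07 (Nmrk1, SE 0.13, adjusted p = 0.795). Exons of Naprt overlap Eef1d on the same strand.

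Nnmt, which methylates nicotinamide and so removes it from salvage, had 1.87, 2.41, 3.29 and 3.39 in wild type against 4.47, 4.66, 4.71, 3.48 and 5.15 in knockout. Knockout 4 was close to the highest wild type, and the mean x rose from 6.31 to 23.0 (difference 1.75, SE 0.50, limma adjusted p = 0.0243). The wild-type level was near the floor, and the call was lost without wild type 1 (0.0734) or without knockout 2 (0.0597), 3 (0.0596) or 5 (0.0698). Aox3 had 2.00 (SE 0.80, adjusted p = 0.107) from a similarly low level. Both genes reached the filter's x of 10 only in knockouts, with a highest wild-type x of 9.469 for Nnmt and 8.815 for Aox3. Their place among the tested genes thus rests on the group where they are higher, and their p-values are a description.

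Of 12 tested NAD consumers 1 rose, Bst1, which cleaves NAD at the cell surface (0.79, SE 0.25, limma adjusted p = 0.0438). Its call was lost in 10 of 20 alternatives, such as those without wild type 1 (0.133), 3 (0.100) or 4 (0.0830) and without knockout 1 (0.0778), 2 (0.115) or 5 (0.101). Quantile normalization (0.0925) and Rn45s as a covariate (0.122) were others. Exons of Bst1 overlap Fbxl5 on the other strand. Its relative Cd38 had -0.12 (SE 0.25, adjusted p = 0.820). The deacetylase Sirt1, tied to the clock through NAD, had 0.13 (SE 0.15, adjusted p = 0.619) and Parp1 0.09 (SE 0.12, adjusted p = 0.693). The kynurenine receptor Ahr had 0.25 (SE 0.33, adjusted p = 0.672), and none of the 5 tested genes of receptors and targets passed (1, the aryl hydrocarbon target Cyp1b1, had an unadjusted p under 0.05 in limma, and adjusted p = 0.0996).

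Markers of cell types moved beside these genes. Among the 17 proximal tubule markers there were 9 that fell and 0 that rose (median -0.667). Their summed share of adjusted reads was 6.19% to 6.96% in wild type and 4.36% to 5.04% in knockout. Most of that sum was Kap, at 3.72% to 5.15% and 2.83% to 3.08%. The other 16 markers took 1.81% to 2.47% in wild type and 1.47% to 2.21% in knockout, ranges that overlapped. Slc22a8 (-1.32, SE 0.13, limma adjusted p = 1.09e-06) and Slc22a6 (-1.21, SE 0.12, adjusted p = 1.39e-06) led by p, while Kap, the most abundant, had -0.67 (SE 0.23, adjusted p = 0.0604). In bulk tissue, fewer cells of a type and less RNA per cell cannot be told apart. The part of these markers in the differences of Ido2, Afmid, Acmsd, Nadsyn1, Ccbl1 and the glutarate genes was not tested.

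Kynu and Kmo are also genes of macrophages. Of 9 tested macrophage and dendritic cell markers 1 fell, Csf1r (-0.48, SE 0.11, limma adjusted p = 0.00436), and none rose, with Cd74 at 0.01 (SE 0.17). Their summed share was 0.0181% to 0.0220% in wild type and 0.0163% to 0.0233% in knockout, so the ranges overlapped. Of 6 lymphocyte markers only 1 passed the filter, and it was not called. Together the 6 took 0.000165% to 0.000282% in wild type and 0.000255% to 0.000574% in knockout, near the floor and with overlapping ranges. Of 6 tested hepatocyte markers 2 rose, Fgb and Apoa2, and 1 fell, albumin (Alb, -2.02, SE 0.25, adjusted p = 2.46e-05). The liver enzymes Tat and Cps1 were at 0 and at most 1.02, respectively, and the summed share of the list overlapped between genotypes (0.0410% to 0.0673% and 0.0330% to 0.0665%). Most of that sum was Ttr, with a mean x of 6008 in wild type and 4858 in knockout. The overlap of the sum thus says little about the other hepatocyte markers. Of 4 globin genes, markers of blood, 0 passed with all 9 libraries (limma, all 4 with an unadjusted p under 0.05). Without wild type 2 and knockout 4 together, all 4 were called higher (limma adjusted p 0.00167 to 0.0132). All 4 were also called higher without wild type 2 alone. Each was called in only 2 or 3 of the 20 alternatives. The globin genes took 0.443% to 1.14% of reads in wild type and 0.647% to 2.60% in knockout.

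Genes that differ between male and female mouse kidney moved strongly in the same libraries. Of 8 male-biased genes 7 fell (median -2.16), with the smallest p for Slco1a1 (-3.04, SE 0.16, limma adjusted p = 3.50e-10), and all 5 female-biased genes rose (median 3.07), with the smallest p for Slc7a12 (5.28, SE 0.21, adjusted p = 2.42e-11). Both lists were chosen with their direction in these data known, and 2 male-biased genes, Kap and Slc7a13, are also on the proximal tubule list. Their part in the differences of the members was not tested.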

How the data were processed

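Kidney RNA (500 ng per library, Trizol, Lexogen QuantSeq 3′ kit, per the labels' protocols) was deposited by the authors as 1 table of log2 values per library. Tools listed in the submitters' processing notes are Bowtie2 and bedtools, with build mm10 and no versions; no source used here states the normalization, annotation or strand setting. Judged from its low values, each deposited value is log2(x + 1) of reads adjusted for library size; the raw depth is unknown.

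A linear model was fitted to the deposited values by limma 3.58.1 (R 4.3.3, eBayes with a mean-variance trend, genotype as the single term, two-sided, Benjamini-Hochberg over the 13481 symbols with x of at least 10 in at least 4 of 9 libraries, threshold 0.05). The 79 rows whose symbol is listed more than once hold no gene named here. The fit was tested on simulated data. Fold changes are on the log2(x + 1) scale and understate changes of low genes. Members get differences and SE from this fit, without p. Library totals limit the precision of low genes most.

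The members and gene lists were chosen with earlier results of these data known. Genes named are all members; per role, up to 4 called genes with the smallest p and a set of key genes whatever their value; the 5 genes most like Kynu and Nampt; and leading markers. Dlst, Got2, Slc6a19, Aox3, Tph1, Tph2, Il4i1, Cyp1b1, Apoa2, Tat and Cps1 were named after their values were seen. Some genes the rule names, and a promoter, are not reported here. Positions came from GENCODE M21 and promoters from RefSeq, both GRCm38, the assembly of mm10. Alternatives covered filter, pseudocount, scaling, variance model, Rn45s, replicate numbers and single libraries.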

Additional observations from a re-analysis of the deposited data

Results flagged for a closer look

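In 70 groups (35 genes in each genotype), a library was looked for that stood apart from the rest of its genotype by most of the genotype's range, which chance gives in about 1 of 20 groups. There were 3. Kmo was 10.314 in knockout 5, against 10.889 to 11.116 in the other knockouts. Nampt was 10.405 in wild type 1, against 10.753 to 10.769 in the other wild types. Hadh was 13.262 in wild type 1, against 13.076 to 13.103 in the others.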

How the results depend on the processing

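Over 20 alternatives each of the 10 members kept its difference within 1 within-genotype SD of the value given: Kynu 2.678 to 3.011, Afmid -0.924 to -0.741, Acmsd -0.844 to -0.661, Ido2 -1.001 to -0.691, Nadsyn1 -0.645 to -0.456, Nmnat1 -0.785 to -0.345, Haao -0.332 to -0.122 and Kmo 0.094 to 0.295. Qprt (-0.259 to 0.113) and Nampt (-0.022 to 0.172) changed sign. Of 13481 genes 1937 were called, 831 higher and 1106 lower; with scaling to the total without Rn45s there were 1272 higher and 695 lower, and 64.7% of calls were higher against 42.9% as deposited (56.8% with the library total, 58.1% with the upper quartile). Pathway genes called lower, 11 as given, were 5 with scaling to the library total, 4 without Rn45s in it, 6 with the upper quartile, 5 with quantile normalization, 4 with Rn45s as a covariate and 7 without wild type 2 and knockout 4. Leaving out 1 library each gave 5 to 12 lower and 4 to 6 higher. Smaller sets of samples have less power; the cause of the other shifts was not tested. Of 39 pathway genes not called, 7 passed in at least 1 alternative.

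For same-numbered libraries the correlation of deviations across genes was 0.151, 0.001, -0.007 and 0.041 for numbers 1 to 4. For pairs of different number it ran from -0.161 to 0.088, so number 1 lay above that range and the others within it. The labels state no pairing, and the numbers are not taken to pair the libraries. With the replicate number as a block, in which knockout 5 has no partner, 1738 genes were called, and 5 pathway genes were higher and 10 lower; Kynu had 2.913.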
